A study of Homo sapiens with 8 samples.

Results

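The positions described are those in coding sequence that lie early in their transcript. A position is 1 base listed as carrying N1-methyladenosine (m1A), and it was kept when at least 1 of its table rows called it coding, none called it 5′ UTR, and its smallest transcript position was above 100 and at most 1000, counted from the start of the listed transcript. Mitochondrial bases and bases annotated to transcripts on both strands were left out, the latter removing 84 coding positions. This gave 3343 early coding positions with 2028 gene labels, out of 9962 listed positions (33.6%). The rule used the annotation and no read count. Of the 3343 positions, 3223 were coding in every row, and the other 120 had a non-coding row for another transcript. For 679 positions (20.3%) the largest transcript position exceeded 1000, so a longer isoform would place them later.

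Neuroblastoma cells, from a tumour of the sympathetic nervous lineage, were given either a control treatment or small interfering RNA (siRNA) that silences TRMT6. The sample titles name the cells SK-N-BE, whereas SK-N-AS stands in the source, cell line and design entries. Each condition had 2 libraries from RNA precipitated with an m1A antibody and 2 input libraries, and the counts used here, whose column names give condition and number only, were taken as the m1A libraries. Nothing in the labels says that same-condition libraries came from separate cultures, so each p-value reflects library-to-library spread that may be technical. No other agent, allele or time point is named, and no dose or duration of silencing is stated.

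m1A is a methyl group on the Watson-Crick face of adenine, which blocks base pairing, so reverse transcriptase stops or misreads there. TRMT6 binds tRNA for the catalytic subunit TRMT61A, and the pair methylates a tRNA loop and tRNA-like stems of some mRNAs that carry the sequence GTTCNA. In mRNA, m1A is best known near the cap and the start codon. TRMT6 itself had no listed position.

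The base at a listed position can be checked only where a reference sequence covers it, and 40 of the 3343 early coding positions fell inside a RefSeq gene-start window of GRCh38.p14. The following 21-base stretches are shown because the listed base, in capitals, bears on which strand the calls describe. All are written 5′ to 3′ on the strand of the annotated transcript. The first set lies on the plus strand of the chromosome and includes pairs of neighbouring positions in 1 gene.
UPF3A chr13:114291736-114291756: aaaaaaaaagAgacagataaa
UPF3A chr13:114291742-114291762: aaagagacagAtaaacagaag
TIMM23B chr10:49942193-49942213: ccatggaaggAggcgggggaa
TIMM23B chr10:49942202-49942222: gaggcgggggAagcggcgaca
CDYL chr6:4892276-4892296: gagggccaggAtggggagcag
CDYL chr6:4892294-4892314: caggcccaggAtacacccact
UNC119B chr12:120710676-120710696: atccggcccgAgcacgtcctg
UNC119B chr12:120710702-120710722: cagccgggtcAccgagagtga
FAM134A chr2:219178502-219178522: acgcctggccAcgacgctgtg
SRRD chr22:26484041-26484061: cccgaggcggAgttcgagtct

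The second set lies on the minus strand of the chromosome, and here the capital at the listed base is a T.
HNRNPK chr9:83972117-83972137: cctatgattaTggtggtttta
FAM155A chr13:107866425-107866445: tgctctctgaTcacttgtggt
FAM155A chr13:107866493-107866513: gttcatcgatTccgagagggc
MRPS34 chr16:1772633-1772653: tttgcagaacTtggaccacgg

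At all 40 covered early coding positions the plus strand of the chromosome held A. For the 35 whose transcript runs on the plus strand, the listed base of the RNA was therefore an adenine. For the 5 whose transcript runs on the minus strand, the listed base of the annotated RNA was a T (U in the RNA). In the rest of the table the base could be read at more positions, and A stood on the plus strand at 468 of 468 positions covered in all, 127 with a plus-strand and 341 with a minus-strand transcript. Shifting the plus-strand early coding positions by 1 base to either side lowered the share with A to 8.82% and 8.57%. The 5 minus-strand positions had reads in the same range as the others: in FAM155A, 18 from control 1 at transcript position 301 and 22 from siTRMT6 1 at 233, in MRPS34, a mitochondrial ribosomal protein, 27 from control 2, in NIPSNAP1 8 from control 2, and in HNRNPK, an RNA-binding protein, 11 from siTRMT6 2.

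The GTTCNA sequence was searched on the transcript strand only, within 10 bases to each side of the listed base. It occurred at 1 of 38 early coding positions with the full stretch, that of SRRD, where gttcga follows the listed base directly. The listed base of SRRD therefore lies outside the GTTCNA sequence and is not its adenine. In the whole table it occurred at 4 of 444. Of all 21-base windows in 35116 RefSeq gene-start sequences, 0.836% held it. These 38 positions were picked by where a reference sequence was at hand, not at random, and the letters at the remaining early coding positions are not analysed here.

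The early coding positions were unevenly divided between the strands of the genome. Of the 3343, 2894 belonged to plus-strand transcripts and 449 to minus-strand ones, a plus-strand share of 86.6% (95% Wilson interval 85.4 to 87.7). Among protein-coding genes with a RefSeq start, 8085 of 15843 (51.0%) lie on the plus strand. The interval treats positions as independent, although positions of 1 gene share its strand. Counted by gene, 1673 of the 2028 labels (82.5%) were plus-strand. The strand column was internally sound: where the gene matched RefSeq, the strand was the same for 2816 of 2816 positions, and between neighbouring positions of 1 transcript the transcript position rose with the coordinate in 3786 of 3786 plus-strand pairs and fell in 234 of 234 minus-strand pairs. Put by gene, 17.5% of plus-strand and 3.79% of minus-strand RefSeq protein-coding genes had an early coding position.

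The skew differed between transcript regions. Later coding positions were 77.6% plus-strand, 3′ UTR positions 68.7%, non-coding RNA positions 67.0% and 5′ UTR positions 45.6%, the last of these below the share of gene starts. In every library the early coding share was the higher one: the difference from later coding positions was 10.1 ± 1.66 percentage points (SD, n = 4 libraries), from the 3′ UTR 18.1 ± 1.04 and from the 5′ UTR 40.7 ± 4.55. Each gave p = 0.125 by a two-sided exact permutation test that flips the sign per library, the smallest p that 4 libraries allow, and 0.25 after Benjamini-Hochberg adjustment over 8 comparisons. The share was 88.0% in control 1, 87.6% in control 2, 87.0% in siTRMT6 1 and 82.3% in siTRMT6 2. The siTRMT6 mean was 3.14 points below the control mean (two-sided exact permutation p = 0.333, the smallest that 2 libraries against 2 allow), and without siTRMT6 2 the difference, siTRMT6 minus control, was -0.781 points.

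**Figure D1:**
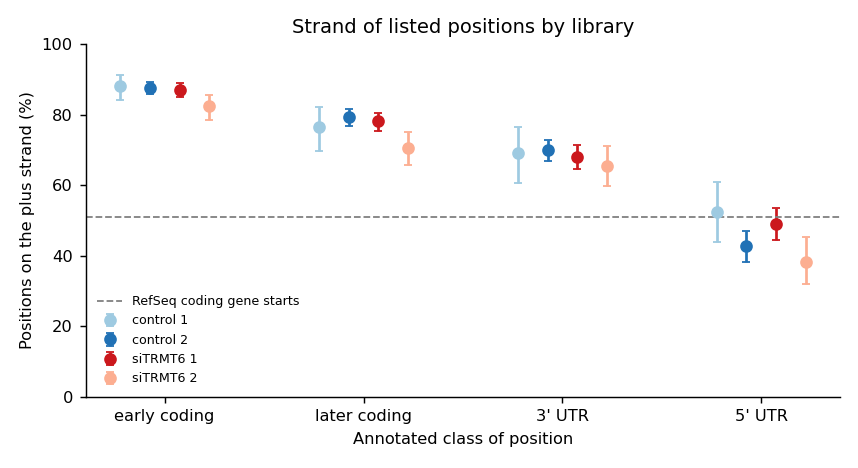
Share of positions on plus-strand transcripts (%, y axis) by annotated class (x axis), each point 1 library with its 95% Wilson interval and the dashed line the share of RefSeq protein-coding gene starts on the plus strand (51.0%). Early coding points lie between 82.3% and 88.0%, above the later coding, 3′ UTR and 5′ UTR points of the same library.

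In 16 of the 17 gene lists, the share of plus-strand genes with an early coding position was above that of minus-strand genes, among genes with a RefSeq strand. Of cytosolic ribosomal protein genes, 31 of 38 on the plus strand had an early coding position and 0 of 25 on the minus strand. Translation factors gave 20 of 24 against 0 of 15, chaperones 14 of 16 against 0 of 18, and nuclear oxidative phosphorylation genes 25 of 33 against 0 of 27. Genes without a RefSeq strand are outside these counts: by the table's own strand column, translation factors had 4 minus-strand early coding positions and the oxidative phosphorylation list 1. Splicing factors and hnRNPs, with 17 of 20 against 6 of 26, had more minus-strand members. Granin and neuropeptide genes gave 3 of 14 against 1 of 5, and intermediate filament genes, the exception, 2 of 5 against 1 of 2. Some of the highest counts were listed under minus-strand transcripts. Where the base could be read, such positions had T in the annotated transcript, so whether these reads come from the named gene was not tested. In PHOX2A, a homeodomain factor of noradrenergic neurons, control 1 contributed 57 reads and siTRMT6 2 24. DOK4, an adaptor of receptor tyrosine kinases, reached 39 in control 1, and HNRNPA2B1, a splicing and RNA transport protein, 34 in control 2. RGAG4 had 33 reads in siTRMT6 1 and VGF, a neuropeptide precursor, 29 in siTRMT6 2. Early positions averaged 1.73 per plus-strand gene and 1.26 per minus-strand gene, and 274 of the 355 minus-strand genes had a single one.

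Within the window, the lower bins of transcript position held more positions than the higher ones. These counts were not set against the coding bases available in each bin. Each position was also binned by its smallest value over transcripts, which favours the low bins. The bin from 201 to 300 held the most, 557 (16.7%), and the bin from 801 to 900 the fewest, 233 (6.97%), with a median smallest transcript position of 446. In each bin both directions were present in similar numbers, 267 higher and 290 lower in siTRMT6 from 201 to 300 and 106 higher and 127 lower from 801 to 900. Median reads per position were 8 or 9 in every bin. The plus-strand share went from 90.2% and 91.9% in the first bins to 77.7% and 77.6% in the last. The median transcript position by library was 413 in control 1, 457 in control 2, 439 in siTRMT6 1 and 458 in siTRMT6 2. At the edges of the window, ODF2 with 6 reads and DLK1 with 19, both in control 2, stood at 100 and were outside, while UBN2 with 7 reads in control 2 and CDK3/TEN1-CDK3 with 6 in control 1 stood at the next base and were inside. CTTN with 13 reads and the minus-strand ATP6V0D1 with 8, both in siTRMT6 1, were inside at 1000. MRPL37 with 7 in control 2 and HGS with 17 in siTRMT6 1 were outside by 1 base.

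**Figure D2:**
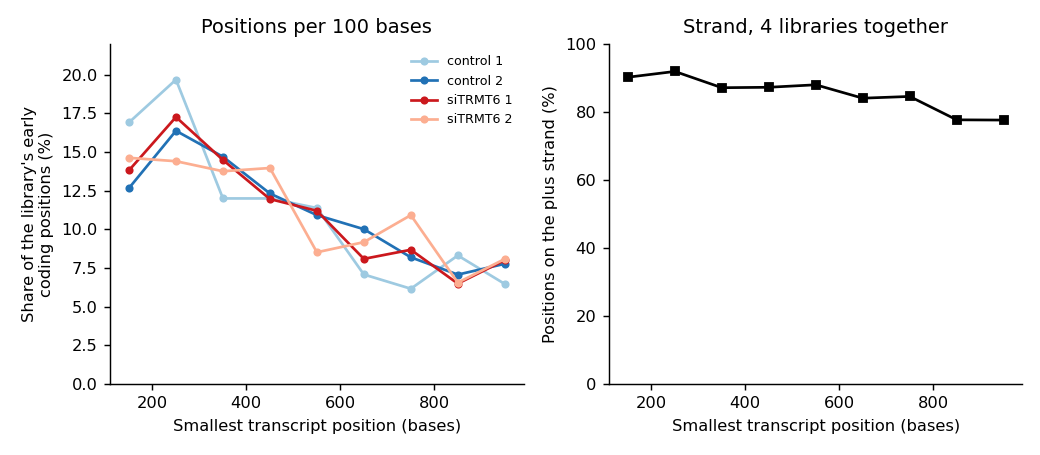
Early coding positions in bins of 100 bases of smallest transcript position (x axis): left, the share of each library's early coding positions (%), 1 line per library; right, the share on plus-strand transcripts (%) with the libraries together. The plus-strand share goes from 90.2% in the first bin to 77.6% in the last.

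Control 1 had reads at 325 early coding positions, control 2 at 1429, siTRMT6 1 at 1187 and siTRMT6 2 at 458. These made up 39.7%, 33.5%, 32.9% and 32.4% of the positions listed for each library, so control 1 stood above the other 3, which were close to each other. The siTRMT6 mean share was 32.6% ± 0.366 and the control mean 36.6% ± 4.39 (SD, n = 2 each), a difference of -3.93 points with a two-sided exact permutation p of 0.333. Without control 1 the difference was -0.825 points. Of the reads at listed positions, the early coding ones held 37.6%, 31.0%, 30.1% and 30.9% in the same order (3252, 14242, 12287 and 4264 reads). The difference was -3.76 points (exact permutation p = 0.333), and -0.452 without control 1. The 2 libraries of a condition differed more in the number of positions than the conditions did.

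Counts per position were low. The median was 8 reads in control 1, control 2 and siTRMT6 2 and 9 in siTRMT6 1, against 9, 9, 8 and 10 for later coding positions. The difference, early minus later, averaged -0.75 reads ± 0.5 (SD, n = 4 libraries, two-sided exact permutation p = 0.25). The lowest listed count was 3 or 4 reads, but counts below 5 in the controls or below 6 in siTRMT6 were rare. Control 2 had 3 positions at 4 reads and 234 at 5. In siTRMT6 1 there were 2 positions at 4 reads, 1 at 5 and 225 at 6. How this difference bears on comparisons between conditions was not tested. At least 10 reads were reached by 120 positions in control 1, 571 in control 2, 523 in siTRMT6 1 and 144 in siTRMT6 2, and at least 30 reads by 8, 14, 8 and 2.

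The 5 early coding positions with the most reads were then taken in each library. In control 1 they were PHOX2A (57 reads), DOK4 (39), HNRNPA1 (37), EIF4G1, the scaffold of the cap-binding complex (33), and DLK1, an imprinted transmembrane protein of the Notch ligand family (32). In control 2 they were NEFM, a neurofilament subunit (60 reads), HNRNPA1 (39), DLK1 (37), NFE2L1, which activates proteasome genes (37), and HNRNPA2B1 (34). In siTRMT6 1 they were HNRNPAB (34 reads), 2 positions of PTMA, an acidic nuclear protein (33 each), RGAG4 (33) and NFE2L1 (32). In siTRMT6 2 they were CHGA, the granule protein chromogranin A (37 reads), MYCN, the amplified oncogene of many neuroblastomas (30), VGF (29) and 2 positions of HNRNPA1 (29 each). HNRNPA1 was in this group in 3 libraries, at different bases in the controls and in siTRMT6 2.

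Early coding positions were rarely shared between libraries, as was the case over the whole table: 3290 (98.4%) had reads in 1 library, against 98.6% of all listed positions, 50 in 2, 3 in 3 and none in all 4. The control libraries shared 30 positions, which is 9.23% of those in control 1 and 2.10% of those in control 2. The siTRMT6 libraries shared 21, which is 1.77% of those in siTRMT6 1 and 4.59% of those in siTRMT6 2. Over the whole table the control libraries shared 63 positions, with 819 listed in control 1 and 4269 in control 2. The siTRMT6 libraries shared 70 there, with 3607 listed in siTRMT6 1 and 1414 in siTRMT6 2. Positions with reads in both conditions numbered 5, against 14 of the 9962 in the whole table, which holds only positions past the authors' test of a difference. Each of the 5 had reads in siTRMT6 2. With either control, siTRMT6 1 shared none, among early coding positions and over the whole table alike. Of the 53 shared positions, 51 were plus-strand, the exceptions being PHOX2A and ZNF814.

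Where 2 libraries shared a base, their counts were close although their totals were not. The larger count over the smaller had a median of 1.33 and a largest value of 2.43. Counts per position span a narrow range, with quartiles of 6 and 12 reads in control 2. Unrelated positions of 2 libraries were not compared in this way, so whether shared bases are closer than those was not tested. In the control pair, control 2 was higher at 23 of 30 positions, equal at 6 and lower at 1, although it held 14242 early coding reads against 3252. In the siTRMT6 pair, siTRMT6 1 was higher at 20 of 21 and equal at 1. Ribosomal protein RPS7 had 12 reads in control 1 and 16 in control 2, EIF3B, an initiation factor subunit, 13 and 13, and NPM1, the nucleolar chaperone, 9 and 10, all with no siTRMT6 reads. DNAJA1, a co-chaperone of HSP70, had 14 reads in siTRMT6 1 and 8 in siTRMT6 2, GNAI2, an inhibitory G protein subunit, 8 and 5, and XRCC6, the Ku70 subunit of DNA end joining, 10 and 7, all with no control reads.

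Further positions shared by the control libraries had between 3 and 14 reads per library. Among genes of RNA processing and protein synthesis, SRRT had 9 reads from control 1 and 10 from control 2, CLK3, a kinase of splicing factors, 9 and 13, RBM10, a splicing regulator, 11 and 12, and TARS, the threonyl-tRNA synthetase, 8 and 7. The last was the single control pair with more reads in control 1. Among metabolic genes, NME1/NME2, nucleoside diphosphate kinases, had 12 and 14, PRDX6, a peroxiredoxin, 6 and 9, NDUFV2/RP11-21J18.1 of complex I 5 and 6, and FAR1 4 and 5. SUN1, of the nuclear envelope, had 7 and 11. MYLIP, a ubiquitin ligase, and RMND5A, a subunit of another, had 5 and 6 each. ZFPM2, a cofactor of GATA proteins, had 4 and 5, NDFIP1 4 and 4, and AUTS2 and ERGIC1 3 and 4 each. All of these had no siTRMT6 reads.

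The other positions shared by the siTRMT6 libraries were of the same size. DCAF15 had 14 reads from siTRMT6 1 and 8 from siTRMT6 2, RPLP1 12 and 8, ZNF526 12 and 6, GSE1 at 85648698 12 and 6, RGS4, which shortens G protein signals, 11 and 9, DDX11, a DNA helicase, 11 and 6, and BUB1B 10 and 6. UQCRQ, of complex III, had 9 and 5, EIF4EBP2, a repressor of cap-dependent translation, 8 and 6, ZNF814 8 and 6, PSMC4, a proteasome ATPase, 8 and 5, SMS, spermine synthase, 7 and 5, and EXOSC8, of the RNA exosome, 7 and 5. STT3B, of the oligosaccharyltransferase, had 6 and 3, FAM177A1 5 and 3, RWDD1 4 and 3, and NCAPH, a condensin subunit, 4 and 4. None of them had control reads, and NCAPH was the pair with equal counts.

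**Figure D3:**
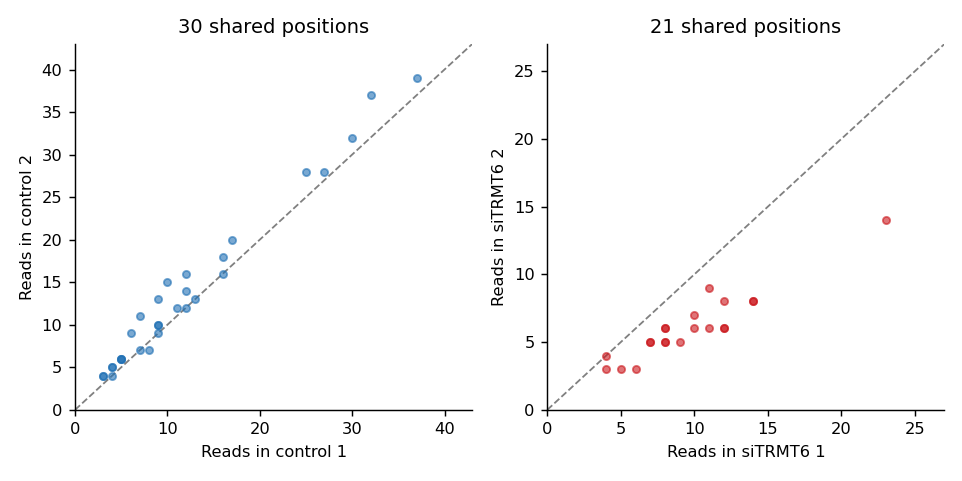
Reads at early coding positions shared by both control libraries (left, 30 positions, control 1 on the x axis and control 2 on the y axis) and by both siTRMT6 libraries (right, 21 positions, siTRMT6 1 and siTRMT6 2), each point 1 position and darker points several. Dashed lines mark equal reads: control 2 was higher at 23 of 30 positions and siTRMT6 1 at 20 of 21.

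At the 5 positions seen in both conditions, the raw count in siTRMT6 2 was lower than that in each control library that had reads. KHDRBS1, the RNA-binding protein Sam68, had 9 reads in each control library, none in siTRMT6 1 and 8 in siTRMT6 2. In the order control 1, control 2, siTRMT6 1 and siTRMT6 2, RBBP4, a histone-binding subunit of chromatin complexes, had 7, 7, 0 and 5. GAS8, a subunit of the ciliary dynein regulatory complex, had 16, 16, 0 and 11. PHOX2A had 57, 0, 0 and 24, and RCCD1 0, 17, 0 and 7. siTRMT6 1 had no listed reads at any of the 5. At KHDRBS1, RBBP4 and GAS8 both siTRMT6 raw counts lay below both control ones, whereas at PHOX2A and RCCD1 the groups overlapped because 1 control library was at 0. These counts are not scaled to the library, and control 2 held 46007 reads at listed positions against 13812 in siTRMT6 2. They therefore do not show a lower share of reads in siTRMT6 2, and whether a 0 stands for an absence of reads is not stated.

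Of the 34 listed positions with enough reads for edgeR's quasi-likelihood test, 12 were early coding, all of them among the shared ones, and 8 of the 12 were called, with an edgeR adjusted p from 0.00592 to 0.0134. Over all 34 tested positions 64.7% were called (38.2% higher and 26.5% lower in siTRMT6). Each of the 8 passed the filter on low counts only through the condition in which it had reads, and the table had already been filtered on the authors' p-value, so these calls give no support to a difference and the values below are a description. Without the filter edgeR called none, each of the 8 having an adjusted p of 0.519 (0 at an unadjusted p under 0.05). With equal library factors only RPL36 and U2AF2 were called, leaving out any 1 library ended all 8 calls, and DESeq2 called none of the 12, with 4 at an unadjusted p under 0.05.

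Of the 8 positions, 7 were listed in the control libraries only. HNRNPA1 (chromosome 12, 54283910) had 37 and 39 reads in controls 1 and 2 and none in siTRMT6, at least 25.3-fold lower. DLK1 (chromosome 14, 100732135) had 32 and 37, at least 23.0-fold lower, and ISLR, an immunoglobulin and leucine-rich repeat protein (chromosome 15, 74175507), 30 and 32, at least 20.6-fold lower. In all 3 both control counts lay far above the 0 listed in both siTRMT6 libraries. EIF5A, a translation factor that carries hypusine (chromosome 17, 7309746), had 27 and 28 control reads, at least 18.3-fold lower. GSE1 (chromosome 16, 85654393) had 25 and 28, at least 17.6-fold lower, PRDX5, a peroxide-removing enzyme (chromosome 11, 64318348), 17 and 20, at least 12.3-fold lower, and U2AF2, the splicing factor that binds the polypyrimidine tract (chromosome 19, 55669664), 16 and 18, at least 11.3-fold lower. Ribosomal protein RPL36 (chromosome 19, 5691614) was listed in the siTRMT6 libraries only, with 23 and 14 reads, at least 12.4-fold higher. KHDRBS1, PHOX2A, RCCD1 and GAS8 were tested and not called. Folds are set against a floor of 3 reads over the empty group on the scale of reads at listed positions. They hold as bounds only where an entry of 0 stands for an absence of reads, and no source used here says so.

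In 3 of these genes, an early coding base at most 50 nt away had reads in the condition that was empty at the called base. EIF5A had 29 reads in siTRMT6 1 at a base 5 nt from the one with 27 and 28 control reads, and HNRNPA1 had 29 in siTRMT6 2 at a base 12 nt away. U2AF2 had 10 reads in siTRMT6 2 at a base 18 nt away. GSE1 and DLK1 had siTRMT6 reads only at more distant bases, GSE1 with 12 and 6 at 85648698 and 14 at 85654919 and DLK1 with 12 at 100728998. Summed over early coding positions, 239 genes had enough reads for edgeR, and 0 were called (background 0%), with 39 at an unadjusted p under 0.05. In the authors' deposited table, whose p-values pool the replicates, all 3343 early coding positions were below an adjusted p of 0.05, as were 9961 of 9962 listed positions (100%). Of the members, 1619 were higher (48.4%, against 49.6% of listed positions) and 1724 lower (51.6%, against 50.4%).

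Most genes had a single early coding position: 1248 of 2028 (61.5%), with 459 at 2 positions and 321 at 3 or more. Positions came from control libraries only in 794 genes, from siTRMT6 libraries only in 654 and from both in 580. Because 98.4% of early coding positions had reads in 1 library, a gene with a single position could rarely fall in both. Of the 780 genes with several positions, 577 (74.0%) had reads in both conditions. Matching shares over all listed genes were not taken, so these counts do not mark genes as particular to a condition. The genes with the most positions were EWSR1, an RNA-binding protein of the FET family, with 9, and GNAS, the stimulatory G protein subunit, with 8. RPS3 and RPL19 of the ribosome, UBAP2L of stress granules and DPYSL2, a tubulin-binding protein of growing axons, had 7 each. PTMA, the actin-filament protein TPM4, the netrin receptor UNC5B and the amyloid precursor relative APLP2 had 6 each, the last 4 being taken from a tie by their summed reads (CCT7, HOXC4 and SDHA also had 6). All 10 of these genes lie on the plus strand. EWSR1 had 5 positions in control 2 (10 to 16 reads), 3 in siTRMT6 1 (12 to 17) and 1 in siTRMT6 2 (11). GNAS had 4 in control 2 (17 to 25 reads), 1 in siTRMT6 1 (18) and 3 in siTRMT6 2 (15 to 17). DPYSL2 had 4 in control 2 (8 to 12 reads), 2 in siTRMT6 1 (9 and 6) and 1 in siTRMT6 2 (6), and TPM4 1 in control 2 (15), 4 in siTRMT6 1 (12 to 18) and 1 in siTRMT6 2 (12). UBAP2L was found in all 4 libraries, with 7 reads from control 1, 10 and 15 from control 2, 15 and 8 from siTRMT6 1 and 10 and 10 from siTRMT6 2. APLP2 had 7 to 16 reads at 4 bases in control 2 and 14 and 9 in siTRMT6 1, and UNC5B summed to 14, 37, 28 and 9 reads in control 1, control 2, siTRMT6 1 and siTRMT6 2. TPM1, a relative of TPM4, had 13, 17, 23 and 12.

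Separate positions of 1 gene often had the same count within a library. RPS3 had 16 reads at each of 3 positions in siTRMT6 2, 745 to 3156 nt apart on the chromosome, and 21 at each of 2 positions in control 1. RPL19 had 17 and 17 reads in control 1, 21 and 21 in control 2 and 16 and 16 in siTRMT6 2. PTMA had 31 and 31 in control 2, 33 and 33 in siTRMT6 1 and 27 and 27 in siTRMT6 2. HOXC4, a homeodomain factor, had 11 and 11 in control 2, 11 and 11 in siTRMT6 1 and 6 and 6 in siTRMT6 2. HNRNPA3 had 30 and 30 in control 1, and the EIF4A1 label, which it shares with SENP3-EIF4A1 and SNORA67, 24 and 24 in control 2. In RPS3, RPL19 and PTMA the count was the same at each base of a library and differed between libraries with such pairs.

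There were 496 pairs of early coding positions in the same gene and library, from 311 genes, and 143 (28.8%) had equal reads. Of pairs from different genes in the same library, 9.65% were equal. Counts within 1 read of each other made up 53.4% and 25.5%. By library, equal pairs were 29.4% against 9.17% in control 1 (17 pairs of the same gene), 23.4% against 9.05% in control 2 (248), 30.1% against 10.1% in siTRMT6 1 (173) and 48.3% against 12.6% in siTRMT6 2 (58). The difference averaged 22.6 ± 9.19 points (SD, n = 4 libraries) and was positive in 4 of 4 (two-sided exact permutation p = 0.125, adjusted 0.25). With at least 10 reads at both positions, 30.9% of 191 pairs were equal against 9.52%. Genes differ in level, and how much of the excess comes from that was not tested. Later coding positions also showed it, with 22.7% against 7.58%. Other genes spread widely: HNRNPUL1 had from 7 to 22 reads at its 4 positions in control 2, the largest ratio of any pair at 3.14. In 50 cases a gene had 3 or more positions in 1 library, and in 8 of them all counts were equal, among them HNRNPH3 with 17 reads at 3 positions in siTRMT6 2 and MSTO1 with 10 at 3 in siTRMT6 1.

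**Figure D4:**
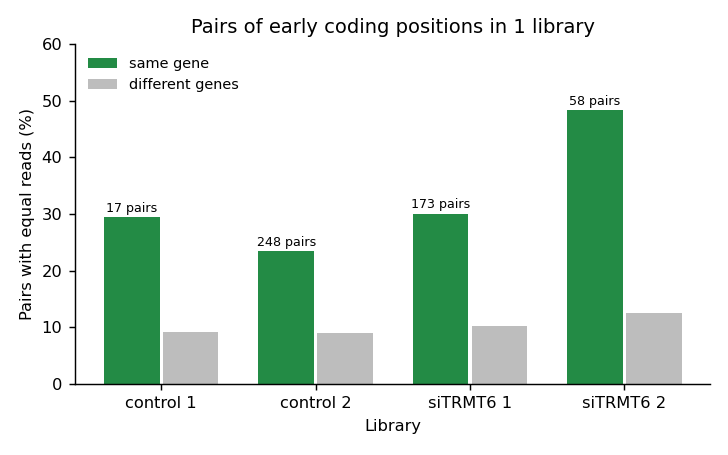
Share of pairs of early coding positions with equal reads (%, y axis) in each library (x axis), for pairs in the same gene (green, number of pairs above the bar) and in different genes (grey). Same-gene pairs were equal in 23.4% to 48.3% and different-gene pairs in 9.05% to 12.6%.

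The spacing of positions also depended on the library. Within 1 library, no 2 early coding positions of a gene lay closer than 335 nt on the chromosome, the closest being in RPL10, with 15 and 15 reads in siTRMT6 1. Across libraries, 567 pairs in 433 genes lay within 50 nt, none of them in the same library. Of these, 421 (74.3%) paired a control with a siTRMT6 position and 146 joined the libraries of 1 condition. Of all possible pairs of early coding positions from different libraries, 74.1% join opposite conditions, so the share among neighbours was at that background. Between 51 and 100 nt there were 87 pairs, and beyond that up to 200 nt 41.

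In the 421 neighbouring pairs from opposite conditions, in 350 genes, reads were summed over the libraries of a condition. The median log2 ratio of siTRMT6 to control reads, on the scale of reads at listed positions, was -0.11 (quartiles -0.41 and 0.0021, range -1.76 to 0.85). By this measure 8 pairs differed by at least 2-fold. Some of these, such as HNRNPA1 and U2AF2, set 2 summed control libraries against 1 siTRMT6 library. Counts per position span a narrow range, with quartiles of 6 and 12 reads in control 2. Pairs from different genes were not compared in this way, so whether neighbours are closer than unrelated positions was not tested. In FAM50A, control 2 had 33 reads and siTRMT6 1 had 31 at bases 7 nt apart, in PTMA the counts were 31 and 33 at bases 7 nt apart, and in CRIP2 27 and 26 at bases 3 nt apart. SCG2, the granule protein secretogranin II on the minus strand, had 26 in control 2 and 27 in siTRMT6 1, 31 nt apart. GATA3, a transcription factor of the sympathetic lineage, had 23 and 25, and PTBP1, a repressor of exon inclusion, 23 and 24. EIF4G1 had 33 in control 1 and 24 in siTRMT6 2 at bases 11 nt apart, and SPEG 29 and 23. The authors' deposited table called each base of these pairs separately, 1 as lower and 1 as higher. The UPF3A pair printed above is of the same-condition kind, with 12 reads from control 2 at transcript position 713 and 11 from control 1 at 719.

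**Figure D5:**
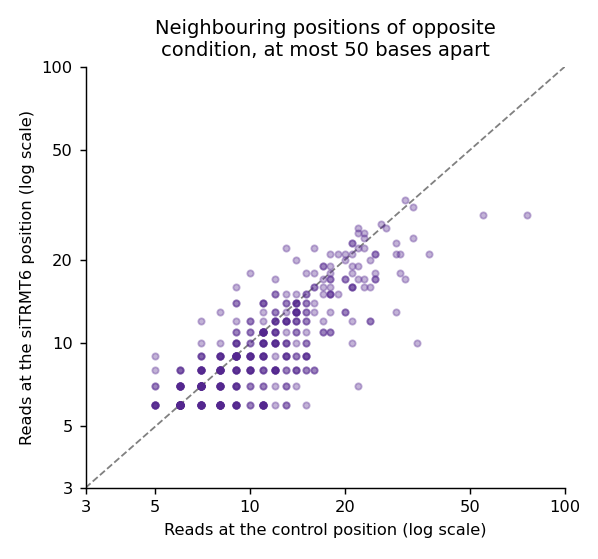
Reads at 421 pairs of early coding positions of 1 gene at most 50 nt apart, the control position on the x axis and the siTRMT6 position on the y axis, both on log scales and summed over the libraries of a condition. The dashed line marks equal reads, and the median log2 ratio of siTRMT6 to control was -0.11.

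Gene families were described by lists chosen with earlier results of these data known. Here higher and lower nearly always mean listed in siTRMT6 only or in control only, since 5 of the 3343 positions had reads in both. Over all early coding positions 48.4% were higher and 51.6% lower. Cytosolic ribosomal proteins had 98 early coding positions in 37 of 79 genes, 58 higher and 40 lower in siTRMT6, with a median of 13 reads against 8 over all members. They had 34 positions in siTRMT6 2, more than in control 1 (18), control 2 (24) or siTRMT6 1 (26), although siTRMT6 2 had 458 early coding positions and control 2 1429. RPL5 had 15 and 16 reads in control 2 and 11, 13 and 14 in siTRMT6 1, and RPLP1 had 14 and 14 in control 2, 12 in siTRMT6 1 and 8 and 8 in siTRMT6 2. Nearly all coding positions of these short transcripts were early, 98 of 102. Translation factors had 56 positions in 24 genes, 31 higher and 25 lower, with a median of 11.5 reads. EIF3B had 5 positions, 4 lower and 1 higher, with 11 to 15 reads in the controls and 10 in siTRMT6 1.

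Splicing factors and hnRNPs had 52 positions in 26 of 53 genes, 26 higher and 26 lower, with a median of 15 reads. HNRNPA3 had 30 reads at each of 2 bases in control 1 and 21 at another base in siTRMT6 2. Chaperones had 37 positions in 16 genes, 19 higher and 18 lower, with a median of 14. In that list CCT7, a subunit of the TRiC folding chamber, had 14 and 15 reads in control 2, 10 and 12 in siTRMT6 1 and 8 and 9 in siTRMT6 2. CCT5 of the same chamber had 22 in control 2, 14 and 15 in siTRMT6 1 and 13 in siTRMT6 2. HSP90B1, the chaperone of the endoplasmic reticulum, had 13 reads from control 1 at transcript position 219, 14 from control 2 at 218 and 14 from siTRMT6 1 at 222.

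Core and linker histones had 16 positions in 13 of 37 genes, 12 higher and 4 lower, with a median of 7 reads and none in control 1. H1F0, the replacement linker histone, had 23 reads in siTRMT6 1 and 15 in siTRMT6 2, and HIST1H3H had 12 from control 2 and 7 from siTRMT6 1. H3F3A, a replacement H3, had 11 from siTRMT6 1 and 7 from siTRMT6 2, and H2AFX, the damage-marked H2A variant on the minus strand, 16 from siTRMT6 1. Histone genes are near-identical copies, and no source used here says how reads that fit several copies were counted. Nuclear oxidative phosphorylation genes had 50 positions in 31 of 73 genes, 25 higher and 25 lower. SDHA, the catalytic subunit of complex II, had 9 reads from control 1, 11 from control 2, 8, 10 and 11 in siTRMT6 1 and 6 in siTRMT6 2. NDUFS6, a complex I subunit, had 12 from control 1 and 13 from control 2 at transcript positions 290 and 279, with no siTRMT6 reads. NDUFA13 of the same complex had 13 from control 1, 15 from siTRMT6 1 and 10 from siTRMT6 2, and COX4I1 of complex IV 17 from control 2 and 11 from siTRMT6 2. Ubiquitin and proteasome genes had 33 positions, 17 higher and 16 lower. There PSMD4, a ubiquitin receptor of the proteasome, had 16 reads from control 1, 20 from control 2 and 13 from siTRMT6 2. PSMD2 and PSMD3, both of its regulatory particle, had 19 from control 2, 14 and 14 from siTRMT6 1 and 9 from siTRMT6 2, and 8 and 13 from control 1, 9 from siTRMT6 1 and 9 from siTRMT6 2. UBB, a polyubiquitin gene, had 17 from control 1 and 18 from control 2.

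Glycolytic enzymes had 15 positions, 8 higher and 7 lower. ALDOA, the muscle-type aldolase, had 27 reads in siTRMT6 1 and 20 in siTRMT6 2 with no control reads, and GPI had 12 and 25 in control 2, 14 in siTRMT6 1 and 8 and 9 in siTRMT6 2. HK1, a hexokinase, had 11 from control 2 and 9 from siTRMT6 1. SLC2A1, the glucose transporter GLUT1 on the minus strand, had 8 from control 1 and 10 from control 2. Tubulins and the actin cytoskeleton had 30 positions, 15 in each direction, with TUBB4B, a beta-tubulin, at 25 reads in control 2 and 21 in siTRMT6 1, 7 nt apart. Intermediate filament genes had 12 positions, 5 higher and 7 lower. LMNA, the nuclear lamin A, had 19 reads in control 1, 24 and 26 in control 2 and 20 in siTRMT6 1. NES, the progenitor filament nestin on the minus strand, had 14 in control 2, 12 in siTRMT6 1 and 10 in siTRMT6 2. LMNB1, a lamin B, had 6 from control 1, 6 from control 2 and 7 from siTRMT6 2. Cell cycle and replication genes had 30 positions, 17 higher and 13 lower. CCND1, the G1 cyclin D1, had 22 and 25 in control 2, 19 and 21 in siTRMT6 1 and 12 in siTRMT6 2. CDT1, which licenses replication origins, had 19 from control 2, 15 from siTRMT6 1 and 10 from siTRMT6 2, and MCM5, of the replicative helicase, 14, 12 and 6 from the same libraries. BUB1B, of the spindle checkpoint, had 9 from control 1, 10 and 10 from siTRMT6 1 and 6 from siTRMT6 2.

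Adrenergic neuroblastoma genes had 33 positions in 16 of 30 genes, 18 higher and 15 lower. DLK1 had 17 and 32 reads in control 1, 21 and 37 in control 2 and 12 in siTRMT6 2, and DBH, which makes noradrenaline, 11 and 18 in control 2, 8 in siTRMT6 1 and 7 in siTRMT6 2. Of 16 adrenergic markers used to check the cells, 12 had a listed position and 7 an early coding one. Mesenchymal neuroblastoma markers had a listed position in 4 of 13 and an early coding one in 1, FOSL2, with 8 reads in siTRMT6 1. The list of 31 mesenchymal neuroblastoma genes had 2 early coding positions, in FOSL2 and SOX9, both with reads in siTRMT6 1 only. Markers of melanocytes, blood and epithelium had no listed position. A missing position does not show that a gene was silent, because the table lists only positions that passed the authors' test. Homeodomain and SOX factors had 25 positions, 14 higher and 11 lower, among them SIX3 with 15 reads in control 2, 16 in siTRMT6 1 and 8 in siTRMT6 2. SOX11 had 10 from control 2 and 9 and 9 from siTRMT6 1, and SOX9 13 from siTRMT6 1. Granin and neuropeptide genes had 9 positions, 6 higher and 3 lower, with the highest median of the lists, 21 reads. Of the 9, 5 lay on plus-strand and 4 on minus-strand transcripts. Minus-strand SCG2 gave 21 (control 1), 26 (control 2) and 27 reads (siTRMT6 1), and VGF 29 (siTRMT6 2). Plus-strand CHGA gave 37 (siTRMT6 2). The base was T in the annotated transcript wherever a minus-strand position could be read. Whether the SCG2 and VGF counts, and with them this median, come from these genes was not tested. CHGB, the granule protein chromogranin B, had 7 and 8 from siTRMT6 1.

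Chromatin remodelling and histone-modifying enzymes, which have long transcripts, had 38 early positions among 181 coding ones, 21 higher and 17 lower. Over all genes, 54.8% of coding positions were early. SMARCA4, a remodelling ATPase, had 18 and 21 reads in control 2 and 15 and 16 in siTRMT6 2, ARID1A, a subunit of the same complex, 12 in control 2 and 11, 15 and 15 in siTRMT6 1, and CHD3 19 in control 1, 22 in siTRMT6 1 and 13 in siTRMT6 2. CHD8, on the minus strand, had 13 from control 2 and 12 from siTRMT6 1. The m1A enzymes and readers had 6 early coding positions in 4 of 16 genes, 2 higher and 4 lower, at 5 to 8 reads. TRMT61A, the partner of TRMT6, had 8 from control 2 at transcript position 226 and 8 from siTRMT6 1 at 241. TRMT61B, a minus-strand gene for the mitochondrial m1A enzyme, had 5 reads in control 1 and 6 in control 2. Minus-strand positions whose base could be read had T in the annotated transcript. TRMT10C, of the mitochondrial tRNA methylating complex, had 6 in control 2, and FTO, an RNA demethylase, 7 in siTRMT6 1. Across the lists the number of positions in each direction followed no single pattern, and no list was tested as a group.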

How the data were processed

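The authors' deposited table listed single-base m1A sites with counts for 2 control and 2 siTRMT6 libraries and, per site, the log2 fold change with raw and adjusted p-value, per the file headers. FastQC 0.11.3, STAR and the build hg38 were used per the submitters' processing notes. No source used here names the site caller or the counting rule, and input counts are not used here. The 25539 lines were reduced to 1 record per site and the coordinates, listed from 0, are printed from 1.

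The libraries held 8655, 46007, 40771 and 13812 reads at listed positions (control 1, control 2, siTRMT6 1, siTRMT6 2). These are not sequencing depths. Wilson intervals and the floor of 3 counts cover counting error only, since reads without molecular identifiers are not independent molecules. Intervals on strand shares also leave out that positions of 1 gene share a strand.

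Counts were tested with edgeR 4.0.16 (TMM scaling, filterByExpr with a minimum count of 10, quasi-likelihood test, Benjamini-Hochberg adjustment), fitted to all listed positions, with DESeq2 1.42.0 as an alternative. The edgeR steps were tested on simulated gene sums, not on single positions. The simulated spread was set far below that of the positions tested (common dispersion 1.75). That test therefore does not show how edgeR behaves on these counts. Shares were compared over libraries by exact permutation. Few positions were shared between libraries, so TMM factors rest on few positions. Sequences and strands came from RefSeq gene-start windows (GRCh38.p14), and older gene symbols were matched when RefSeq gives them to 1 gene.

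Named positions were those with reads in several libraries, the 5 highest per library, the 10 genes with the most positions, up to 4 genes with the most reads per list, and the 10 opposite-condition neighbour pairs with the highest smaller count. Some shared positions covered by these rules are not reported here. The members, the lists and the rules were chosen with earlier results of these data known. Strand shares and equal-read pairs were examined after the data were seen.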

Additional observations from a re-analysis of the deposited data

How the results depend on the processing

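The edgeR count of 8 called early coding positions did not hold under most alternatives. It was 2 with equal library factors, 0 with DESeq2, 0 without the filter on low counts, 0 (lowest and highest) when any 1 library was left out, and 0 with the per-gene sums. It was 8 with DESeq2's size factors. Over all listed positions the corresponding counts were 22, 14, 0, 0, 0, and 22. The cause was not tested, except that leaving out a library leaves 1 in its arm, which is then assumed to vary like the other group. The replicate block, which pairs libraries by number, also called 0, with 0 at an unadjusted p under 0.05. The labels do not say that a number marks a pair, and deviations of same-numbered libraries correlated at -0.0329 over 4773 genes. The block left the difference in the early coding share at -3.93 points. The shares, the median reads, the plus-strand shares and the equal-read pairs kept their direction under every alternative run. The comparisons of adenine and of GTTCNA between early and later positions over libraries were not run, because a genome sequence is not used here. With a median of 8 reads, small differences at a single base could not be detected.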
